A study of Drosophila melanogaster with 2 samples.

Results

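The large subunit of the cytoplasmic ribosome is built from ribosomal RNA and the proteins encoded by the RpL genes, and it forms the bond between amino acids during translation. The genes examined here were the protein-coding genes whose symbol is RpL followed by a digit, or by P and a digit, in the Ensembl annotation. There were 54 of them among 13945 protein-coding genes on the 6 chromosome arms with thresholded peaks. The rule uses the symbol and no measured value, and it was set with earlier results of these data known. In flies these genes are highly transcribed in nearly all cells, and many of their promoters carry a pyrimidine-rich initiator, known as the TCT motif, in place of the common initiator. The factor mapped was Sima, the fly HIF-1alpha, which in low oxygen pairs with Tango and turns on genes through the hypoxia response element.

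The chromatin came from whole Drosophila melanogaster embryos of mixed sex, 0 to 24 h old, of a transgenic line (strain sima-RB-GFP) that stably expresses, from an insertion, the RB form of Sima fused at its C terminus to GFP. Both samples were biological replicates of this single group, precipitated with an anti-GFP antibody, and no other genotype or oxygen level was compared. Whether the line kept its own sima gene, and what drives the transgene, is not given in the sources used here. Embryos hold many tissues, so stronger binding in few cells and weaker binding in many cannot be told apart. The deposited files list enriched regions on the dm6 build with a signal from the peak caller, and a gene was called bound when the summit of a region lay within 500 bp of any of its annotated start sites. No read totals were used, so depth is unknown, and the intervals below cover counting error over genes alone. Each signal is given as a ratio, relative to the median of the 30000 regions in the same list.

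The promoters of 5 strongly bound members are printed first, and the summit of each member lies in the stretch shown. Each runs on the gene's strand from 100 bases before the outermost start site to 20 bases from it, read from the Release 6 genome. Capitals mark the hypoxia core words ACGTG or GCGTG, the DRE core ATCGAT and the Motif 1 word GTCACAC on either strand. They also mark the TCT initiator words CTTTT or CTTTC on the gene's strand that start from 5 bases before to 5 bases after that start site. The hypoxia core is that of the response element. The DRE is the site of the housekeeping factor DREF, and Motif 1 is a core promoter element bound by M1BP.
RpL32 (chr3R:30046142-30046261, minus strand): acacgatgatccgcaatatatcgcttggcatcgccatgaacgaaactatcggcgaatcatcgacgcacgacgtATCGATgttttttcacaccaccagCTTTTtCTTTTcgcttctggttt
RpL7 (chr2L:10200904-10201023, plus strand): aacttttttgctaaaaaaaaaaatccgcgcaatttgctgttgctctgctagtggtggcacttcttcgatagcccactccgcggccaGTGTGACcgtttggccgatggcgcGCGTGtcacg
RpL23A (chr3L:1668635-1668754, minus strand): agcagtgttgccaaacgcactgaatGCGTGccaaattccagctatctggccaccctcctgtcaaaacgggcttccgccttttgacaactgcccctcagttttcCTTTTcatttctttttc
RpL24 (chr2L:13395112-13395231, minus strand): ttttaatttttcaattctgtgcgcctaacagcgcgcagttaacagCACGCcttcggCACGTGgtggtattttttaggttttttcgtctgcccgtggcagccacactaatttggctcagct
RpL14 (chr3L:8600906-8601025, plus strand): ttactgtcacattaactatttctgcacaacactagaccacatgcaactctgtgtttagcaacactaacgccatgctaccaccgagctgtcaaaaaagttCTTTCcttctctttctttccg
RpL32 had the DRE core and the TCT word, RpL7 the hypoxia core and Motif 1, and RpL23A the hypoxia core and the TCT word. RpL24 had the hypoxia core alone and RpL14 the TCT word alone. These are words in the stretch, not at the summit: RpL32 had no hypoxia core, DRE core or Motif 1 word within 50 bp of its summit.

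Of the 54 large subunit genes, 30 were bound in the list that passed the authors' threshold on the irreproducible discovery rate (IDR). This is 55.6% (exact binomial 95% interval 41.4 to 69.1), beside 6.22% of all protein-coding genes. The 30 had 30 distinct strongest regions, though a region can also count for a neighbouring gene that is not a member. Among the 1272 strongest regions of each replicate, the length of the IDR list, 27 members were bound in replicate 1 (background 5.51%) and 28 in replicate 2 (background 6.54%). In both replicates at once 23 were bound (42.6%, interval 29.2 to 56.8), against 3.64% of all genes. Any region at all of the 30000 called on the pooled reads lay near a start site for 49 members, against 48% of all genes. The median rank of the best pooled region was 1034 over all 54 members, while 7250 of the 13945 genes had no region, so that no median rank exists for all genes.

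**Figure D1:**
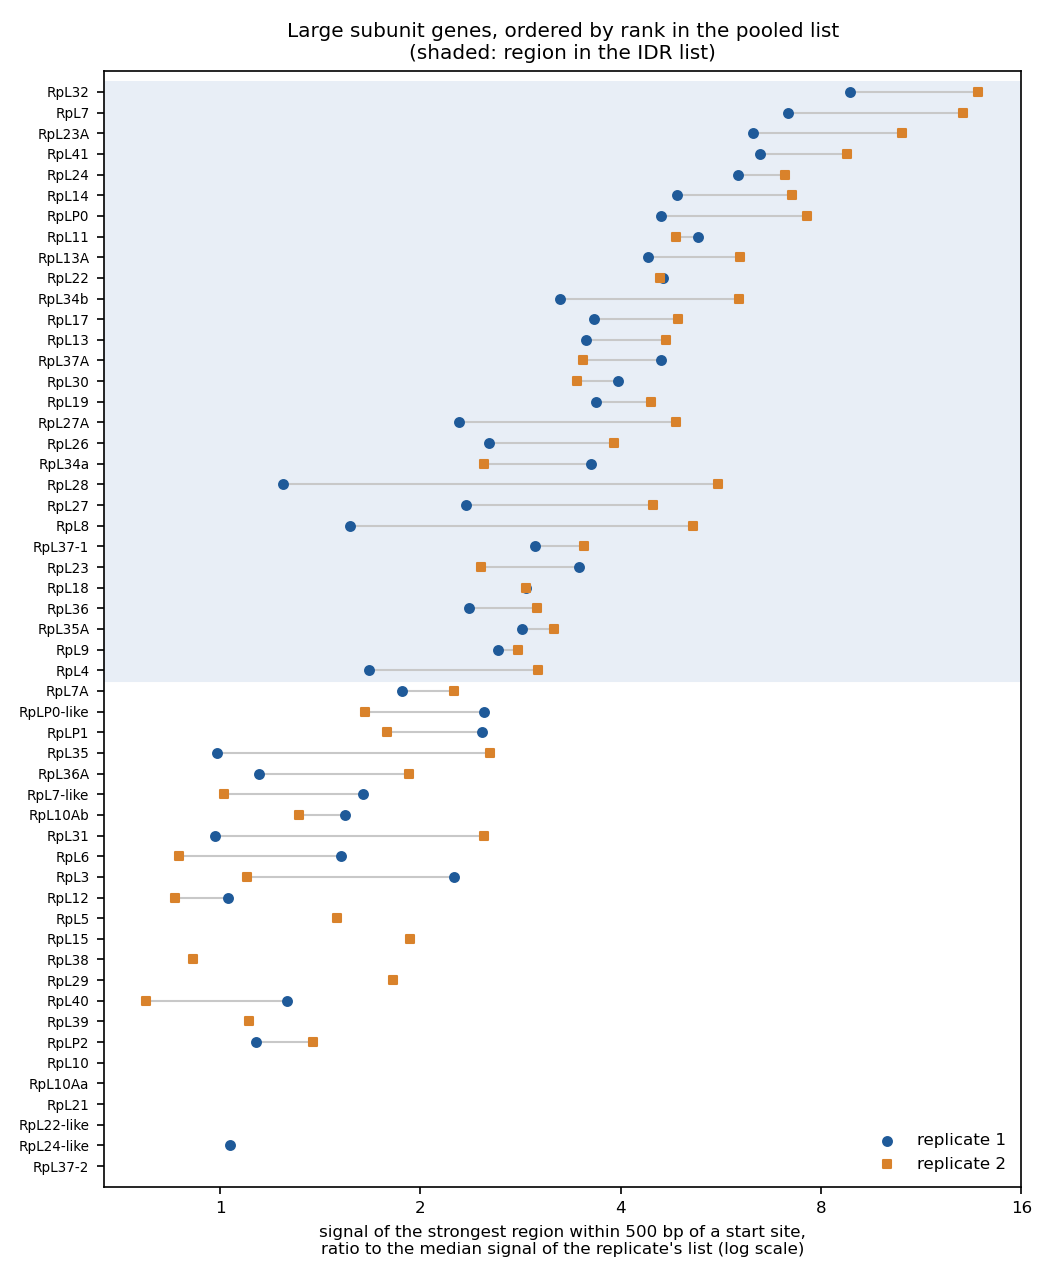
Signal of the strongest region within 500 bp of a start site of 53 large subunit genes, relative to the median region of the replicate's list (log axis), for replicate 1 (circles) and replicate 2 (squares), ordered by rank in the pooled list; a line joins the replicates. The 29 shaded genes have a region in the IDR list, and their ratios run from 1.24 to 8.85 in replicate 1 and from 2.47 to 13.8 in replicate 2.

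The strongest region lay at RpL32, whose messenger RNA is the common reference transcript (rp49) in fly work (chr3R:30045229-30046161). Its ratio was 8.85 in replicate 1 and 13.8 in replicate 2 (mean 11.3 ± 3.49, SD, n = 2), at pooled rank 39, with the summit 87 bp upstream of a start site. RpL7 (chr2L:10201004-10202321) followed at rank 52 with ratios of 7.13 and 13.1 (10.1 ± 4.19, SD, n = 2) and the summit 17 bp downstream. RpL23A, at the mouth of the exit tunnel (chr3L:1666288-1668654), had rank 85 and ratios of 6.33 and 10.6 (8.45 ± 3.0, SD, n = 2), with the summit at -95 bp. In these 3 genes both replicates were above 6, and replicate 2 was the higher.

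RpL41, which encodes one of the smallest proteins known (chr2R:24903416-24903935), had ratios of 6.47 and 8.77 (rank 106). RpL24, part of a bridge between the subunits (chr2L:13393687-13395131), had ratios of 6.01 and 7.05 (rank 129), and RpL14 (chr3L:8601006-8602392) 4.87 and 7.24 (rank 159). RpLP0, the base of the stalk that recruits elongation factors (chr3L:22075867-22077487), had 4.60 and 7.61 (rank 163). The replicates of these 4 genes differed by less than 2 times. RpL11 (chr2R:19442342-19443825; 5.22 and 4.84; rank 233) and RpL13A (chr3R:5624474-5625947; 4.40 and 6.05; rank 234) were also among the 10 strongest. RpL11, a partner of the 5S ribosomal RNA, was the only one of the 10 with the higher ratio in replicate 1.

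Over the 30 bound genes the ratio had a median of 3.63 in replicate 1 (1.24 to 8.85) and 4.76 in replicate 2 (2.47 to 13.8). Replicate 2 was the higher at 23 of them (76.7%), with a median fold of 1.35 (0.690 to 4.50). This is the direction of bound genes in general, since at 831 other bound genes replicate 2 was the higher at 80.9%, with a median fold of 1.5. Across the 30 genes the ratios of the replicates had a Spearman's rho of 0.606 and a Pearson's r of 0.610 on the log2 scale, as a description of genes that were all picked from the pooled reads of both. The other bound protein-coding genes together with these 30, 868 in all, had a median pooled rank of 596.5, and the 30 one of 466.5.

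Every one of the 30 IDR summits had a summit within 100 bp in each replicate, at a median gap of 11.5 bp in replicate 1 and 14.0 bp in replicate 2. The IDR list equals the 1272 strongest regions called on the pooled reads of both replicates, and a match of any strength counted. Being in it did not require a strong region in each replicate. The matches were thus largely built in and show nothing particular to the members. The strength was less even. RpL28 had ratios of 1.24 in replicate 1 (rank 8344) and 5.59 in replicate 2 (rank 305), the widest gap. RpL8, which lies at the catalytic centre, had 1.57 and 5.14 (ranks 4185 and 378), and RpL4, which lines the exit tunnel, 1.67 and 3.0 (ranks 3407 and 1055). RpL27 and RpL27A were also outside the strongest 1272 of replicate 1, at ranks 1307 and 1393. RpL34a and RpL23 were outside those of replicate 2, at ranks 1452 and 1483. The ranks of replicate 1 are shifted by 14 mitochondrial regions in its list, of which the list of replicate 2 has none.

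Summits at large subunit genes sat closer to the start site than at other bound genes. Positions are relative to the nearest of the gene's start sites, and negative is upstream. The median was -31 bp (range -149 to 112), against -142.5 bp at the 838 other bound genes. Within 50 bp of a start site lay 19 of 30 summits (63.3%), against 89 of 838 (10.6%), and within 150 bp lay all 30, against 48.9%. In replicate 1 alone 48.1% of member summits were within 50 bp (others 10.9%), and in replicate 2 alone 60.7% (others 13.8%). Genes with 1 annotated start site gave 7 of 14 members against 7.64% of 419 others. When each IDR region was given to its nearest start site only, 19 of 29 members' regions lay within 50 bp, against 14.4% of 624. Small subunit genes, of which 14 were bound, had a median of -21 bp and 71.4% within 50 bp. These are descriptions, and the difference was not tested.

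**Figure D2:**
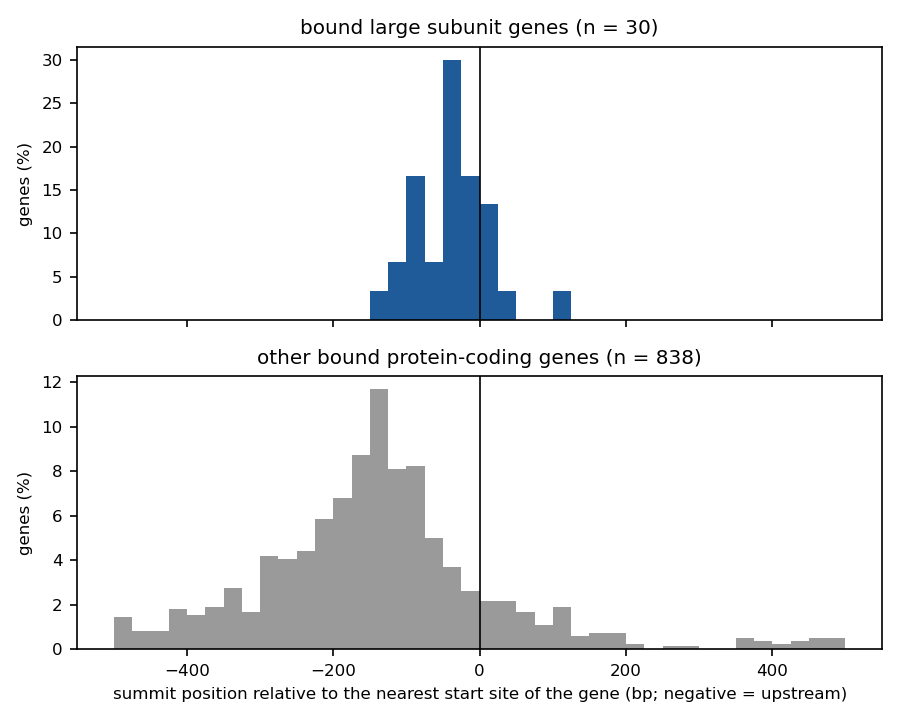
Position of the strongest IDR summit relative to the nearest start site of the gene, in bins of 25 bp, as percent of genes, for the 30 bound large subunit genes (top) and the 838 other bound protein-coding genes (bottom). The members lie between -149 and 112 bp, while the others spread over the whole 500 bp to each side with a peak upstream.

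Upstream of the gene's nearest start site lay 24 of the 30 summits (80%), and 6 lay at or downstream of it. At other bound genes 86.2% lay upstream. By annotation of the summit base, 19 were intergenic, 8 lay in the 5' UTR of the member itself and 1, at RpL26, in its own intron. The 5' UTR summits of RpLP0, RpL13 and RpL27A were upstream of the nearest start site but downstream of the gene's outermost one. No share over other bound genes is given for these classes. The summit of RpL41 lay in an intron of NaCP60E, and that of RpL37A in an exon of a noncoding RNA gene. Relative to the nearest start site, RpL26, whose product sits at the exit tunnel, had the summit farthest downstream, at 112 bp. At RpLP0 the summit lay 45 bp upstream of the nearest start site, but more than 112 bp downstream of the outermost one. At RpL24 the summit was 1 bp downstream of a start site.

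Many members share their start region, so that a region cannot be given to one gene. Of the 54, 34 had a start site of another protein-coding gene within 1000 bp, and of these 20 were bound (58.8%), against 9.76% of all genes with such a neighbour. Without such a neighbour 10 of 20 members were bound (50%), against 3.57% of all genes without one. When small RNA and other noncoding genes also count as neighbours, as several RpL introns hold snoRNA genes, 11 members were alone at their start region. Of these, 4 were bound (RpL23A, RpL24, RpL27 and RpL37-1; 36.4%, interval 10.9 to 69.2), against 3.34% of all such genes. At 29 of the 30 bound members no other protein-coding start site was nearer to the summit than the member's own. The exception was RpL18, whose summit lay at -149 bp from RpL18 and 128 bp from Neos. RpL13 shares its start region with Dref, the gene of DREF itself, and had ratios of 3.54 and 4.68. Its summit lay in the 5' UTR of RpL13, 8 bp upstream of the nearest RpL13 start site and downstream of the outermost one.

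RpL32 lies close to sima, the gene that the transgene copies. The start of sima (chr3R:30058311-30121798) is 12150 bp from the outermost start site of RpL32. Within 20000 bp of that start site the pooled list held 30 regions, where the density of arm 3R gives 8.83, the list of replicate 1 held 29 (8.90) and that of replicate 2 held 24 (9.03). The 30 pooled summits lay between -10984 and 16202 bp, with none farther out in this window. The IDR list held 4 (0.374). These had pooled ratios of 6.48 at -2869 bp, near Sry-delta, of 12.7 at RpL32 itself, of 4.73 at 10587 bp and of 6.98 at 15121 bp, inside sima. How much DNA around sima the transgene holds is not given in the sources used here, and the part of extra copies in the RpL32 signal was not tested. Without RpL32, 29 of the members were bound. The region of RpL32 also counts for CG7943, which starts on the other side of it, with the summit 222 bp upstream.

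**Figure D3:**
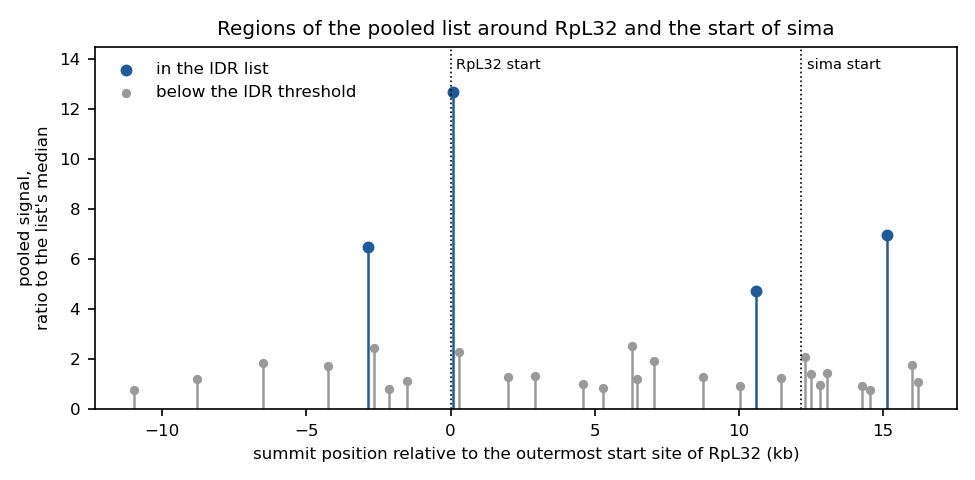
Regions of the pooled list within 20 kb of the outermost start site of RpL32, by summit position (kb, increasing along arm 3R) and signal as the ratio to the list's median; large points are in the IDR list and dotted lines mark the starts of RpL32 and sima. The region at RpL32 has a ratio of 12.7, and the 3 other IDR regions lie between 4.73 and 6.98.

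Grouped by the place of the protein in the ribosome, no group was bound as a whole. The groups are small and were formed after values were seen, so their counts, to be set beside 55.6% of all members and 6.22% of all genes, show nothing particular to a group. Of the stalk proteins and the protein at its base, RpLP0 was bound, and RpLP1 (2.47 and 1.78), RpLP2 (1.13 and 1.38) and RpL12 (1.03 and 0.856) were not. Of the partners of the 5S RNA, RpL11 was bound and RpL5 was not, with a ratio of 1.5 in replicate 2 and no region in replicate 1. Around the exit tunnel 5 of 8 genes were bound (RpL4, RpL17, RpL19, RpL23A and RpL26). RpL31 (0.981 and 2.49) and RpL35 (0.990 and 2.55) were unbound, with the higher value in replicate 2, and RpL39 had a region in replicate 2 alone (1.10). At the catalytic centre RpL8 was bound, RpL3 (2.24 and 1.10) was not, and RpL10 had a region in the pooled list alone, at rank 26450. RpL40, made as a fusion with ubiquitin, was unbound (1.26 and 0.773).

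Of the 4 genes with symbols ending in -like, 0 were bound, a count that the 6.22% of all protein-coding genes would also give. Without them 30 of 50 members were bound (60.0%). In yeast the orthologs of RpL24-like, RpL7-like and RpLP0-like are assembly factors that leave before the subunit is finished. RpL24 was bound (6.01 and 7.05), while RpL24-like had a region in replicate 1 alone, with a ratio of 1.03. RpL7 was bound (7.13 and 13.1), and RpL7-like had ratios of 1.64 and 1.01. RpLP0 was bound (4.60 and 7.61), and RpLP0-like had 2.49 and 1.65. In these pairs each value of the -like gene lay below both values of its partner. The partners were bound and the -like genes unbound by the same signals, so this order was largely built in.

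Of 4 pairs of copies of one ribosomal protein, 2 were split, 1 was bound at both genes and 1 at neither. By gene, 4 of the 8 were bound, beside 55.6% of all members and 6.22% of all genes. The split pairs therefore show nothing particular to copies. RpL22 was bound (4.63 and 4.59), and its paralog RpL22-like, known from the male germ line, had no region in any list. RpL37-1 was bound (2.97 and 3.52), and RpL37-2 had no region in any list. RpL34a (3.61 and 2.49) and RpL34b (3.25 and 6.03) were both bound. RpL10Ab (1.54 and 1.31) and RpL10Aa, which had no region in any list, were both unbound.

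Promoters of -like genes and of the RpL10A and RpL34 copies are given for comparison with those above, with the same window and capitals. Of these, RpL34a and RpL34b were bound.
RpL24-like (chr3R:11431563-11431682, minus strand): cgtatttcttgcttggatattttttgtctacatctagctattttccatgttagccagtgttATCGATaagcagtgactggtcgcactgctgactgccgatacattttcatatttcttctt
RpL7-like (chr2L:12056226-12056345, plus strand): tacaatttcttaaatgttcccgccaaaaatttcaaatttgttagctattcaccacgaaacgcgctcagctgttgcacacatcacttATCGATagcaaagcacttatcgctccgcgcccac
RpL10Ab (chr3L:11822751-11822870, plus strand): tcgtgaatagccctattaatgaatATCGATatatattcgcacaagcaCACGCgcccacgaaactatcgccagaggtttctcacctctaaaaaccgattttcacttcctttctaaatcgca
RpL10Aa (chr3R:15037266-15037385, plus strand): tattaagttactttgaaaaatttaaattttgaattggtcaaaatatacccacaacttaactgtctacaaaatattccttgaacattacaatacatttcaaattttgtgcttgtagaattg
RpL34a (chr3R:26059248-26059367, minus strand): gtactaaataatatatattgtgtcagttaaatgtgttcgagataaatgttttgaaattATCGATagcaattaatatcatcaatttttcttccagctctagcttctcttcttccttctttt
RpL34b (chr3R:9401207-9401326, minus strand): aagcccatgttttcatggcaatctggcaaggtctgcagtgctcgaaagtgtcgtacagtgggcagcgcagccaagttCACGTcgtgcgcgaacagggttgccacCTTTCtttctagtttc
RpL10Aa had none of the words in this window. RpL24-like and RpL7-like, both unbound, had the DRE core, and RpL10Ab, also unbound, had the DRE core and the hypoxia core. RpL34a had the DRE core, and RpL34b the hypoxia core and the TCT word. The summit of RpL34b lies 110 bp upstream of the start site, just outside its stretch.

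The 24 unbound members ranged from just below the threshold to no region at all. Just inside it were RpL35A (rank 1113; 2.84 and 3.17), RpL9 (rank 1162; 2.61 and 2.80) and RpL4 (rank 1172). Just outside were RpL7A (rank 1611; 1.88 and 2.24), RpLP0-like (rank 1690) and RpLP1 (rank 1795). RpLP0-like and RpLP1 were within the strongest 1272 regions of replicate 1, at ranks 1101 and 1116, and no unbound member was within those of replicate 2. In the pooled list 19 of the 24 had a region, at ranks from 1611 to 26450. RpL10Aa, RpL21, RpL22-like and RpL37-2 had no region in the pooled list or in either replicate.

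The members nearest the centromere were unbound. RpL15, RpL5 and RpL21 lie 0.842, 0.977 and 1.27 Mb from the centromere end of their arm sequence, and all 3 were unbound. Of all 110 protein-coding genes within 1.5 Mb of those ends, 0 were bound, which allows a share of up to 2.73%, and 20 had any pooled region (18.2%, against 48% of all genes). The limit of 1.5 Mb was set after these values were seen. Repeats and read mapping there were not examined, and their part was not tested. Within 6 Mb of those ends 3 of 8 members were bound (5.06% of all genes there), and farther out 27 of 46 (6.38%). By arm, 7 of 13 members were bound on 2L (6.47% of all genes there), 5 of 14 on 2R (5.65%), 7 of 10 on 3L (6.61%), 7 of 11 on 3R (6.87%) and 4 of 6 on X (5.33%).

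The TCT, DRE and hypoxia words were at like shares in bound and unbound members. The Motif 1 word was at a higher share in bound members and the word GAGAG at a lower one. These are small counts, and no difference was tested. From 5 bases before to 5 after the canonical start site, 24 of the 54 members had a TCT initiator word starting there (44.4%), against 3.52% of all 13944 promoters read. The canonical start site differs from the outermost one at some genes, so RpL32 and RpL34b, with the word at the outermost site, are not among the 24, and RpL24 and RpL7-like are. The share was 13 of 30 bound members (43.3%) and 11 of 24 unbound members (45.8%). Among 467 other genes with the word, 38 were bound (8.14%). The DRE core stood between 250 bases before and 50 after the start site in 12 of 30 bound (40%) and 9 of 24 unbound members (37.5%), against 22.7% of all promoters. The hypoxia core stood in 18 of 30 (60.0%) and 14 of 24 (58.3%), against 43.0%. The Motif 1 word stood in 7 of 30 (23.3%) and 3 of 24 (12.5%), against 9.39%. TATAAA, 40 to 20 bases before the start site, stood in 1 unbound and 0 bound members, against 7.92%. GAGAG stood in 5 of 30 (16.7%) and 7 of 24 (29.2%), against 30.2%. A word in these windows is a description of letters, not a site.

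**Figure D4:**
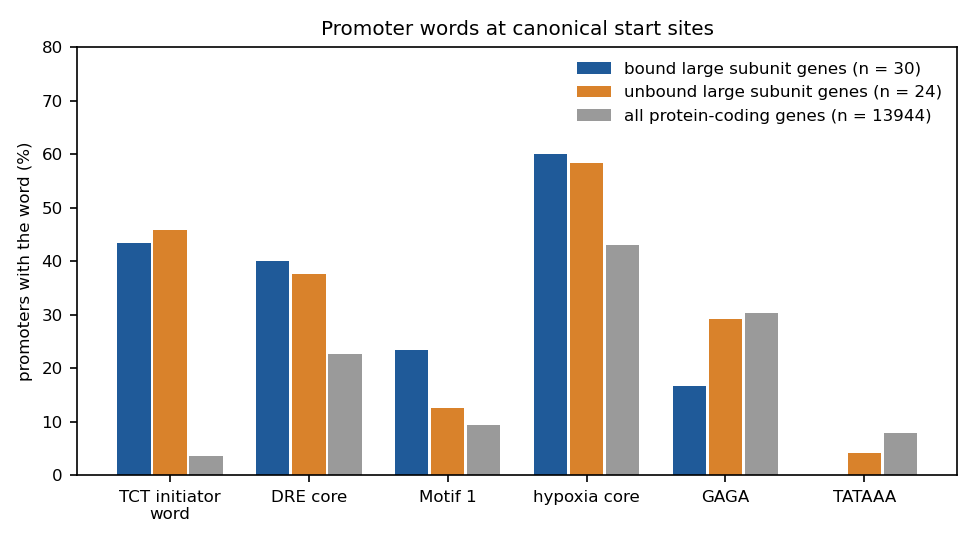
Percent of promoters with each word at the canonical start site, for bound and unbound large subunit genes and all protein-coding genes. The TCT word stands in 43.3% of bound and 45.8% of unbound members against 3.52% of all genes, and the hypoxia core in 60.0%, 58.3% and 43.0%.

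Within 50 bp of the summit the hypoxia core stood at 10 of the 30 bound members (33.3%), against 82 of 595 other promoter regions (13.8%). They included RpL7, RpL8, RpL11, RpL13, RpL23A, RpL24, RpL30, RpL36 and RpL41. RpL32, the strongest, had none there. The base composition differed in the same direction: the median G+C content of these windows was 44.6% at members and 32.7% at other promoter regions. The 86 other regions with a summit within 50 bp of a start site had 42.6% G+C and the hypoxia core in 18 (20.9%). The DRE core stood at 5 members (16.7%; other regions 5.88%, the 86 close ones 18.6%), and the Motif 1 word at 4 (13.3%; 1.01% and 4.65%). GAGAG stood at 1 member (3.33%) and at 7.90% of other regions. The part of base composition in these shares was not tested.

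Among the other genes of ribosomes, small subunit genes were bound next most often, in 14 of 38 cases (36.8%, exact binomial interval 21.8 to 54.0), with a median pooled rank of 1735.5 over all 38. Their interval overlaps that of the large subunit, and the difference was not tested. Their strongest were RpS27 (9.69 and 14.6) and RpS10b (4.17 and 6.52). Mitochondrial large subunit genes were bound in 3 of 47 cases (6.38%, interval 1.34 to 17.5), beside the background of 6.22%. Those 3 included mRpL41 (16.3 and 27.2) and mRpL23 (8.91 and 14.3), both above every cytoplasmic large subunit gene in both replicates. All 3 share their start region with another gene, coding or noncoding, since 0 of the 8 such genes alone there were bound. Their regions therefore cannot be given to 1 gene. Of 18 genes on a ribosome assembly list 1 was bound, eIF6 (5.94 and 11.6), which keeps the unfinished large subunit from joining the small one. The list was chosen by hand and includes genes of ribosomal RNA transcription and growth control, so its share is not that of assembly factors alone. The start region of eIF6 is shared too, since 0 of the 4 genes of this list alone there were bound.

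**Figure D5:**
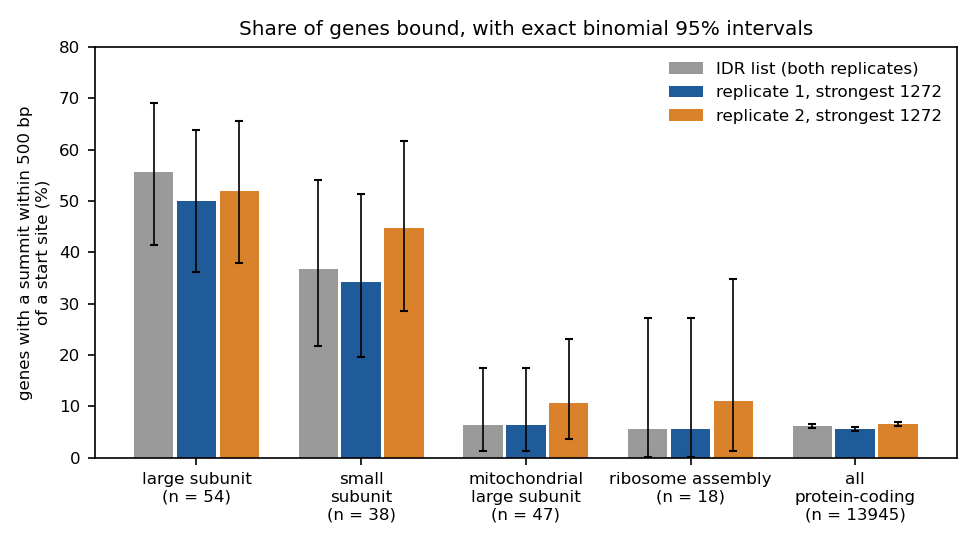
Percent of genes with a summit within 500 bp of a start site in the IDR list and among the strongest 1272 regions of each replicate, with exact binomial 95% intervals over genes. Large subunit genes stand at 55.6, 50 and 51.9%, small subunit genes at 36.8, 34.2 and 44.7%, and all protein-coding genes at 6.22, 5.51 and 6.54%.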

How the data were processed

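ChIP-seq of GFP-tagged Sima gave 2 replicates of 1 group. The authors deposited region lists in narrowPeak layout on dm6 with a signal per region, each called against 1 control file, per the accompanying text files; the caller, the scale of its signal and the cutoff on the IDR were not stated in those files or the labels. The lists used were the IDR list (1272 regions), the pooled list and 1 list per replicate (30000 regions each). The IDR list was checked to be the 1272 pooled regions of highest signal. The dm3 lists were not used, since no dm3 annotation was used here. Every signal is the authors' own value and was used for ranks and ratios within a list.

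Genes and start sites came from Ensembl release 115 (BDGP6.54), and sequence from RefSeq's Release 6 genome, read with Python 3.11.15, pandas 2.3.3 and numpy 2.4.6; intervals used scipy 1.17.1 and figures matplotlib 3.10.9. A start region was a gene's own when no start site of another gene lay within 1000 bp. The step that joins summits to genes recovered every planted summit when tested on simulated data. No test was run: there was 1 group, and the members and lists were chosen with earlier results of these data known. The groups by place in the ribosome, the distances from the centromere side, the readings of summit position, the 86 close regions and the G+C content were added after values were seen. Named genes are the 10 strongest, paralogs and -like genes, 3 genes to each side of the threshold, RpL32 and up to 2 genes of each other list; other members were named after their values were seen. The values of 1 member are in the counts but are not reported here.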

Additional observations from a re-analysis of the deposited data

How the results depend on the processing

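The count of 30 bound large subunit genes was the same at 250 and 1000 bp, with any base of the region, with the canonical transcript alone and without the -like genes. It was 33 with 2 times as many pooled regions (61.1% of members, 11.2% of all genes), 17 with the 636 strongest regions (31.5% of members, 3.27% of all genes) and 27 to 28 without 1 replicate. Among those 636, 2 bound members were alone at their start region and 2 had the DRE core at the summit. No share over other genes or regions is given for these 2 counts. The 4 bound members alone at their start region became 10 when only protein-coding neighbours counted, a reading chosen after seeing the data. The median summit position was -41 bp with the canonical transcript alone, where 83.3% lay upstream, and -45 to -39 bp without 1 replicate. With 100 bp to each side, 10 members had the DRE core. A wider window raises this count at any region, and no share over other regions is given for it. With GCCACAC added, after seeing the data, 9 had a Motif 1 word at the summit (30% of members, 1.68% of other promoter regions and 9.30% of the 86 with a summit within 50 bp of a start site). With all regions of each replicate, 43 members had one in both (79.6%, beside 31.7% of all genes). The cause of these changes was not tested beyond what each setting itself adds or removes. The words ACGTG and GCGTG stood at 8 of the 17 members bound with the 636 strongest regions and at 8 of 28 without replicate 1. With 100 bp to each side they stood at 15 of 30. These counts differ in window and in members counted, and no share over other regions is given for them. Depth is unknown, so an unbound member is one not found by these lists, not one shown to lack Sima. No paired analysis was possible because there is 1 group.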
